A study of Drosophila melanogaster with 12 samples.

Results

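The largest of 3 simulated splicing changes, labelled 60%, was set against its control in computer-simulated RNA sequencing libraries of the fruit fly Drosophila melanogaster. The comparison used 6 of the 12 libraries in the series: 3 titled KD_ASchange_60%, which model S2 cells given an siRNA against PSI, and 3 titled control, which model S2 cells given a non-targeting siRNA. The submitters paired the 60% level with their internal group testgroup2_0.8, and the score tables of that group were the ones used. Libraries titled 40% and 20% shared the same 3 controls and appear here as side-by-side values. All 12 libraries modelled 1 cell line, S2, an embryonic line with blood-cell-like (hemocyte-like) properties. No cell was treated, so the values describe which genes the programs called in simulated reads, and they say nothing of what PSI does in cells.

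The genes came in 2 deposited lists: 2000 genes on a list of alternatively spliced genes (the AS list, 12.1% of all genes) and 14595 on a list of genes not so (the non-AS list), 16595 in all. How the AS list was drawn up is not given in the sources used here. It is read as the set of genes whose splicing was meant to differ. However, 836 of the 2000 have 1 transcript in the current annotation. Whether a change was written into the reads of each listed gene is not known, so an uncalled gene is not always a missed change. For each gene, 6 programs (Cufflinks, JUM, MAJIQ, MISO, rMATS and Whippet) had given 1 score, in which a higher value means stronger evidence of a splicing change. A gene is called here when its score is at least 0.95, or for MISO when its Bayes factor, the weight of evidence for a change over none, is at least 10. A gene that a program did not list counts as not called. The tables pool all libraries of a comparison, so there is no spread between replicates, no test over libraries and no depth per library. A call says that a program's score passed the threshold, which does not establish that isoform use differed in the gene. The scores carry no direction, so which isoform gained cannot be read from them. Intervals are exact 95% Clopper-Pearson intervals of a share. They treat genes as drawn at random, which the genes of a list are not, and do not stand for replicates.

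Most animal genes are transcribed into a precursor RNA whose introns are removed by the spliceosome, and many genes yield several mRNAs through the choice of splice sites, of whole exons or of the first and last exon. PSI is an RNA-binding protein of the fly known for repressing the splicing of the P-element transposase transcript, and SR proteins and hnRNPs are the broad families that steer such choices. Splicing programs differ in what they look at: rMATS counts a fixed set of event kinds, JUM and MAJIQ follow the junctions that share a splice site, Whippet quantifies the pieces of a gene between splice sites and transcript ends, and Cufflinks and MISO estimate whole or local isoforms. JUM was designed to work without an annotation, while rMATS, Cufflinks and MISO usually start from one. The members are described first by the annotated structure of their transcripts and then by function.

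At the 60% level 935 of the 2000 AS-list genes, 46.8% (44.5 to 49.0), were called by at least 1 program, beside 7.18% of the genes of both lists. At least 3 programs called 591 AS-list genes, 29.6% (27.6 to 31.6), where 3.60% of both lists were so called. The other 1065 AS-list genes, 53.2% (51.0 to 55.5), were called by none. Among the called genes, 264 were called by 5 programs and 7 by all 6, 159 by 3 and 161 by 4, while 224 were called by 1 program and 120 by 2. On the non-AS list 256 genes (1.75%) were called by at least 1 program, 6 by 3 programs and none by more.

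Whippet called the most AS-list genes, 866 (43.3%), and 26.4% of all genes in its table were called. MAJIQ called 607 (30.4%) beside 33% of its table, and JUM called 566 (28.3%) beside 43.3% of its table. The tables differed in how many genes they held, so a share of a table and a share of the AS list are not the same measure. A table share also includes the AS-list calls. Cufflinks called 481 (24.1%) beside 3.56% of its table, and rMATS called 415 (20.8%) beside 35.8%. MISO called 12 (0.600%) beside 5.47% of its table. On the non-AS list JUM called 90 genes (0.617%), Whippet 89 (0.610%) and MAJIQ 51 (0.349%). There rMATS called 35 (0.240%), Cufflinks 30 (0.206%) and MISO 6 (0.0411%). In JUM, MAJIQ, rMATS and Whippet most listed AS-list genes were called. JUM listed 616 AS-list genes and called 91.9% of them, and MAJIQ listed 734 and called 82.7%. For rMATS the values were 507 and 81.9%, and for Whippet 1536 and 56.4%. Cufflinks listed 1822 but called 26.4% of these, and the median score of its listed AS-list genes was 0. Leading scores sat at the top of each scale: 543 AS-list genes had the highest JUM score of 1.00, and 757 had the highest Whippet score.

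**Figure D1:**
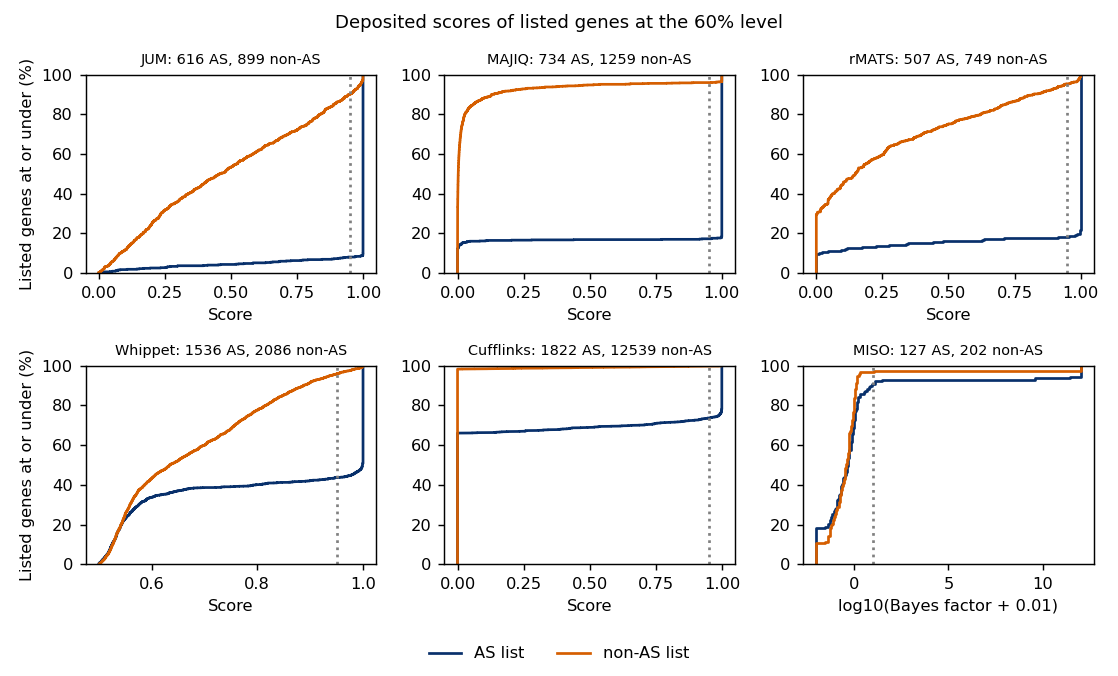
Cumulative share of listed genes (y axis, percent) at or under each deposited score (x axis; for MISO the log10 of the Bayes factor plus 0.01, and negative rMATS values drawn at 0), 1 panel per program, with AS-list genes in blue, non-AS-list genes in orange and the calling threshold dotted. AS-list genes pile up at the right edge in JUM, MAJIQ and rMATS, most of those in Cufflinks sit at 0, and the MISO curves lie close together below the threshold.

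Called and uncalled AS-list genes differed widely in annotated structure. Gene structures were read from the current fly annotation (Ensembl release 115, assembly BDGP6.54), which is not the build the submitters name, and 1988 AS-list names were found in it. An intron chain is a distinct series of introns among a gene's transcripts. Of the AS-list genes, 836 (41.8%) have 1 annotated transcript, and 7 of these were called by any program and 2 by at least 3. All 158 intronless genes with 1 transcript went uncalled, but Cufflinks listed 121 of them, Whippet 1 and the other programs 0. A gene that is not listed cannot be called, so this count is no rate of detection. Genes with at least 2 intron chains numbered 822, and 578 of them, 70.3% (67.1 to 73.4), were called by at least 3 programs. Among the 1166 genes with 1 chain or none this count was 10, or 0.858%. Of these 1166, JUM listed 23, rMATS 15 and MISO 17, while Whippet listed 742 and Cufflinks 1047. MAJIQ listed 102 of the 969 with 1 chain and 2 of the 197 without an intron. A gene listed by fewer than 3 programs cannot reach 3, so this share is no rate of detection either. The share called by at least 3 programs kept growing with the number of chains. It went from 55.7% of 366 genes with 2 chains to 73.5% of 155 with 3. It was 132 of 159 genes with 4 or 5 chains and 90.1% of 142 with 6 or more. Listing by JUM grew too, from 204 of the 366 to 126 of the 142, and it called 196 and 125 of those listed. Whippet listed 339 and 140 of the same classes and called 238 and 133. Cufflinks listed 340 and 131 and called 138 and 92. The part that listing has in the growth was not tested.

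The 2 single-transcript genes that at least 3 programs called are described after their values were seen, like the other exceptions in this paragraph. One is CG34113, whose authors' deposited scores were 1 in rMATS, 0.979 in Whippet and 0.99532 in Cufflinks. The other is CG14117, now annotated as a pseudogene, which 5 programs called. Among the 10 genes with 1 chain or none that reached 3 programs, 6 pair a spliced with an unspliced form of an intron, an annotated retained intron that leaves a single chain. In all, 17 AS-list genes with 1 chain or none have a retained intron, so most such genes did not reach 3 programs. One of the 6 is CG9691: in the authors' deposited table it scored 1.0 in MAJIQ, 1 in rMATS, 1.0 in Whippet and 0.999741 in Cufflinks, and JUM did not list it. Another is bic, called by JUM, Whippet and Cufflinks. An unspliced form is not counted as a chain here, and why programs called these genes was not tested.

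**Figure D2:**
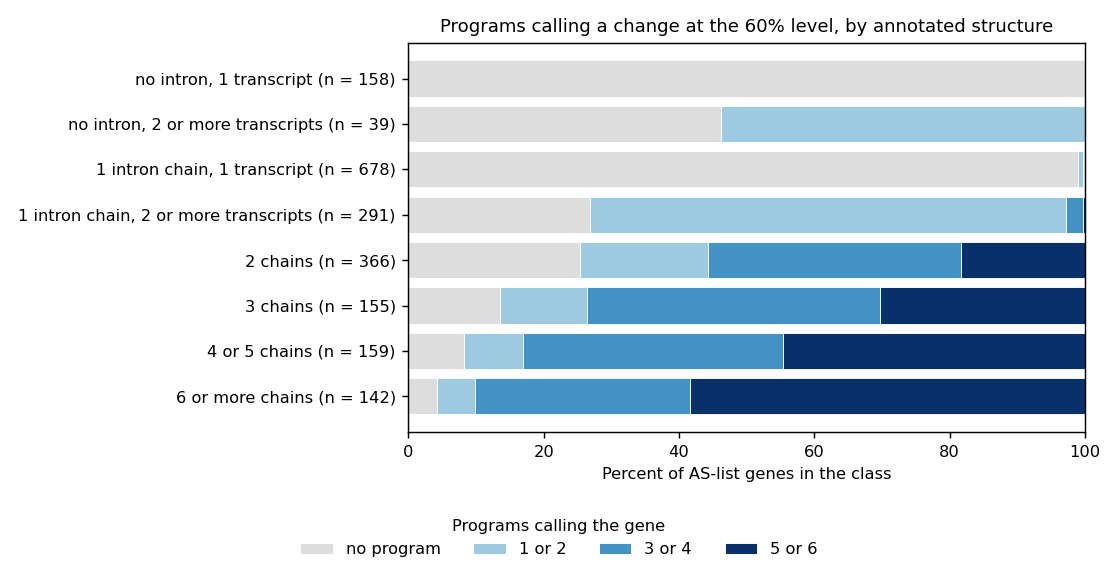
Share of AS-list genes (x axis, percent) called by no program, 1 or 2, 3 or 4, or 5 or 6 programs, for 8 classes of annotated structure (y axis, with the number of genes). The 158 and 678 genes with 1 transcript are almost wholly grey, genes with 1 chain and several transcripts are mostly pale blue, and the dark classes widen from 2 chains to 6 or more.

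Genes with 1 intron chain and at least 2 transcripts, which differ in where they start or end or in an unspliced form, numbered 291. At least 1 program called 213 of them (73.2%), but 8 reached 3 programs. Whippet called 70.4% of the class and Cufflinks 27.5%, against 12 genes in MAJIQ, 6 in JUM and 4 in rMATS. Of the 291, MAJIQ had listed 46, JUM 14 and rMATS 7, against 267 in Whippet and 276 in Cufflinks. A pair of these genes encodes mitochondrial ribosomal proteins. For mRpL21 the authors' deposited table has 1.0 in Whippet and 0.770786 in Cufflinks, with no entry in the other 4 programs, and mRpS18B has 1.0 and 0.861047. The metabolic enzyme Mdh1, a malate dehydrogenase, was likewise called by Whippet alone. So was kibra, an upstream regulator of the Hippo growth pathway. Both Whippet and Cufflinks, and no other program, called stg, the Cdc25-type phosphatase that drives entry into mitosis. Intronless genes with several transcripts showed the same split: 21 of 39 were called, each by Whippet and by no other program, among them the small heat shock protein gene Hsp23. Of the 180 AS-list genes that Whippet alone called, 146 had several transcripts and at most 1 chain.

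Among genes whose annotated transcripts differ in a single kind of event, the programs that called them differed with the kind. Alternative 5' splice sites, where an exon ends at different positions, were the sole kind in 86 genes, and JUM called 68, MAJIQ 69, rMATS 54, Whippet 75 and Cufflinks 49. At least 3 programs called 69 of the 86, or 80.2%. Examples are RpL10 and RpL10Ab, proteins of the large ribosomal subunit, and Dcr-2, the Dicer enzyme of the fly's siRNA pathway. Alternative 3' splice sites were the sole kind in another 86 genes, of which 59 (68.6%) were called by at least 3 programs. Cassette exons, exons that are included whole or skipped, were the sole kind in 38 genes, of which 28 (73.7%) reached 3 programs and 33 were called by Whippet. Atg7, an enzyme of autophagy, and Sf3b3, a component of the U2 snRNP listed under the name CG13900, belong here.

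Retained introns and alternative first exons were the kinds in which programs parted. A retained intron was the sole kind in 84 genes: Whippet called 65 and MAJIQ 53, while JUM called 33 and rMATS 31. JUM had listed 38 of these genes and rMATS 35, so most of those they listed were called. Df31, a chromatin decondensation factor, and G9a, a histone H3 lysine methyltransferase, were called by 5 programs each, whereas r2d2, the Dcr-2 partner protein, was called by MAJIQ, Whippet and Cufflinks and not listed by JUM or rMATS. An alternative first exon was the sole kind in 85 genes: JUM called 60, MAJIQ 59 and Whippet 58, but Cufflinks called 10 and rMATS 1. Cufflinks had listed 78 of the 85 and rMATS listed 1, the amino acid transporter gene JhI-21. Atg8a, the ubiquitin-like protein that coats autophagosomes, showed the common pattern: the authors' deposited table gives 1 in JUM, 1.0 in MAJIQ and 1.0 in Whippet, 0 in Cufflinks and no entry in rMATS. Hsp60, the mitochondrial chaperonin, and CG8036 had that same set of scores. The set of JUM, MAJIQ and Whippet without the other 3 programs occurred in 119 AS-list genes, and 78 of these have an annotated alternative first exon. Such an exon is annotated in 261 AS-list genes (13.1%), and in 74 of the 262 called by every program but MISO. As defined here it needs at least 2 chains, which 822 AS-list genes have, 259 of the 262 and 117 of the 119 among them. The 822 are therefore the closer base for the 261.

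**Figure D3:**
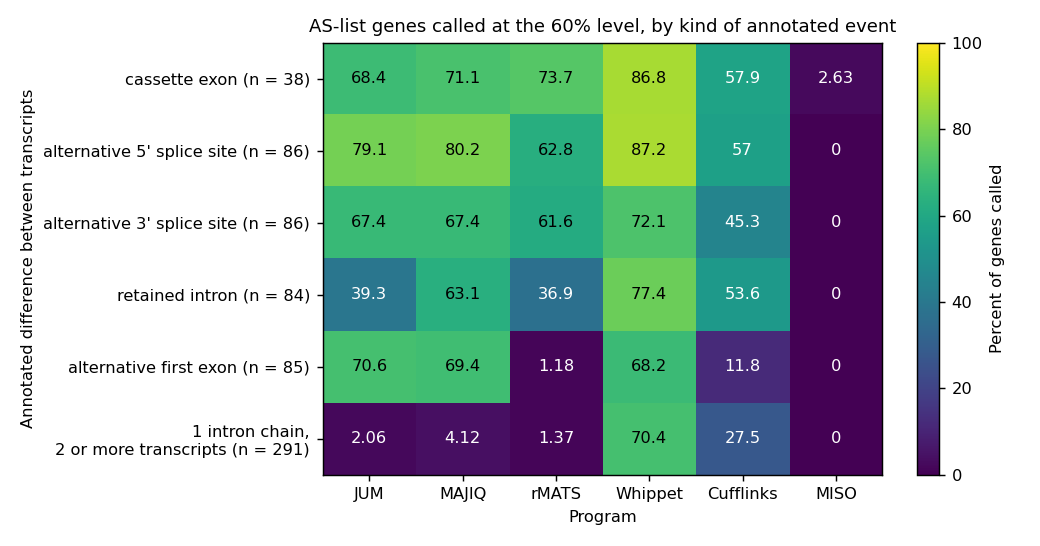
Percent of AS-list genes called (cell colour and number) by each program (x axis) for genes with 1 annotated kind of event and for genes with 1 intron chain and several transcripts (y axis, with the number of genes). rMATS stands at 1.18% for alternative first exons, JUM at 39.3% for retained introns, and Whippet at 70.4% for the genes with 1 chain.

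Mutually exclusive exons, of which a transcript holds one or the other, are annotated in 44 AS-list genes, mostly beside other kinds, and 41 of these were called by at least 3 programs. They were the sole kind in 3 genes, which JUM, MAJIQ, Whippet and Cufflinks called and rMATS did not. One is babo, the type I receptor for activin-like ligands, whose mutually exclusive exons encode alternative ligand-binding regions. Its rMATS entry in the authors' deposited table is -197, one of 8 negative whole numbers in that table at this level, and it was kept as not called. Several kinds together went with more calls: at least 3 programs called 69.9% of genes with 1 kind, 82.9% with 2, 89.6% with 3 and 89.4% with 4 or more. A further 98 genes have at least 2 chains but none of the 7 kinds as defined here, and 9 of them reached 3 programs. Genes with more introns and a longer span also drew more programs, with a median of 2 introns among uncalled AS-list genes and 9 among those called by 5 programs. The median span was 1852 bp in the first group and 6697 bp in the second. Because chains, introns and span grow together, their separate parts were not tested.

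All 6 programs called 7 AS-list genes, and each has at least 2 intron chains. Tl encodes Toll, a receptor of innate immunity and dorsoventral patterning, and lies on arm 3R from 26799041 to 26842403 (BDGP6.54, FBgn0262473, plus strand), with 2 intron chains that differ by a cassette exon. Adf1, a transcription factor that binds the Adh promoter, lies on arm 2R from 6662265 to 6668085 and has 3 chains. Pka-R2 encodes the type II regulatory subunit of protein kinase A and iPLA2-VIA a calcium-independent phospholipase A2; the other members are KrT95D, CG3630 and CG32809. Of the 264 genes called by 5 programs, 262 lacked the MISO call. For Tl the authors' deposited MISO table has 1000000000000, its ceiling, and for Pka-R2 it has 13.16. Below these stand l(2)gl, a tumour suppressor of cell polarity, with a Bayes factor of 8.42, and Sap47, a synapse-associated protein, with 6.47. The mitochondrial acyl carrier protein gene mtacp1 reached 12.26 in MISO and stood at 5 programs because Cufflinks gave 0.433316 in the authors' deposited table.

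Gene functions were described with 34 lists of genes, and beside each count stands the same over all 2000 AS-list genes: 822 with at least 2 chains, 591 called by at least 3 programs and 1065 called by none. In all, 451 AS-list genes were on a list, 198 with at least 2 chains, of which 168 were called by at least 3 programs. In each list except that of noncoding genes, the number of multi-chain members and the number called by at least 3 programs differed by at most 3.

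**Figure D4:**
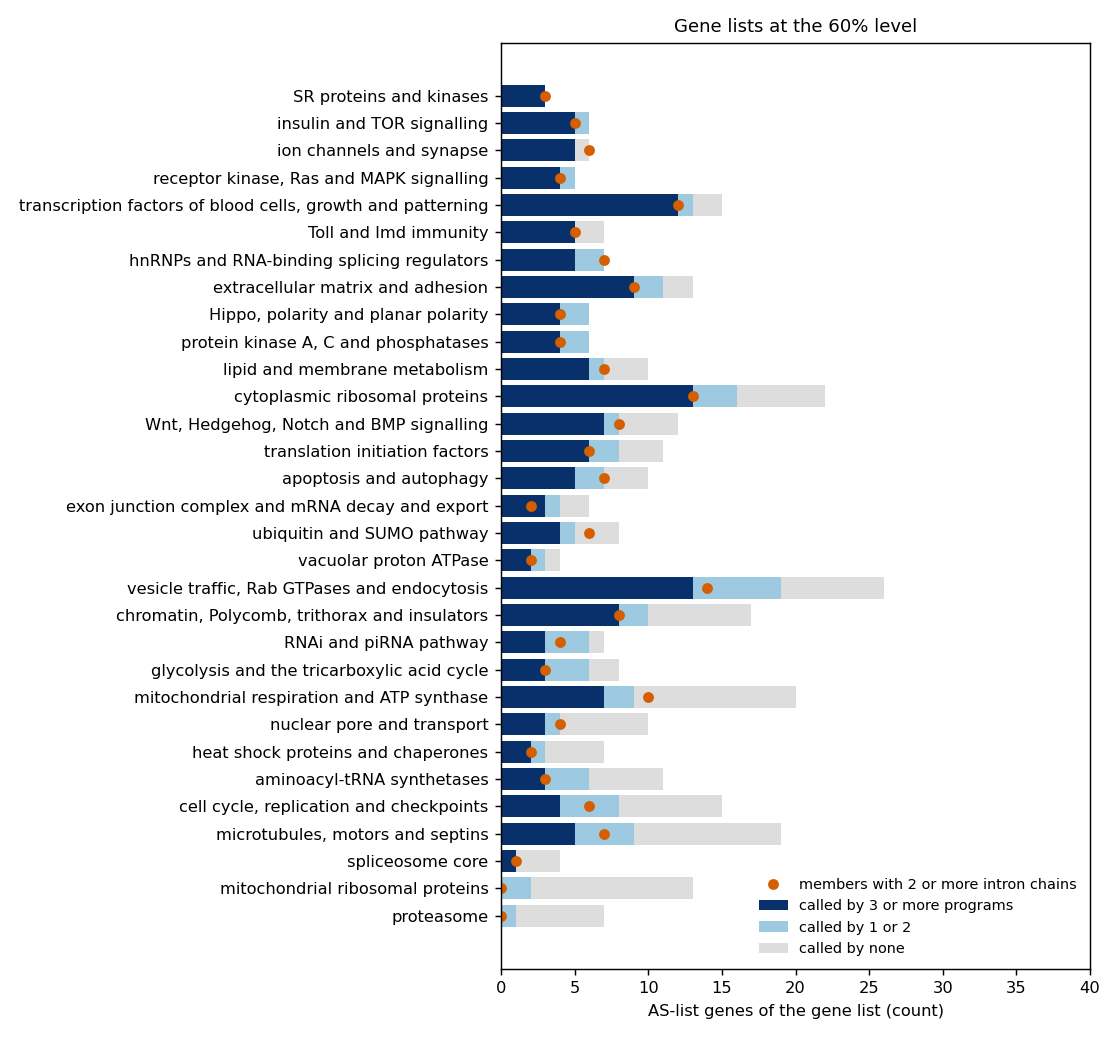
AS-list genes of the gene lists reported (x axis, count) called by at least 3 programs, by 1 or 2, and by none, with an orange dot at the number that has at least 2 intron chains; lists are ordered by the share called by at least 3. The noncoding list is not drawn. In each list drawn the dark bar ends at or within 3 genes of the dot, and the proteasome and mitochondrial ribosomal protein lists have no dark bar.

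Genes of the translation machinery fell on both sides. Of 93 cytoplasmic ribosomal protein names, 22 were on the AS list (23.7%), 13 of them have at least 2 chains, and those 13 were called by at least 3 programs. RpL13, RpL15 and RpL36 were each called by 5 programs. RpL39 and RpL35A, with 1 transcript each, were called by none, and RpL27A was listed by 5 programs without a call. Its scores in the authors' deposited table were 0.772182 in JUM, 0.591 in Whippet and 0 in Cufflinks. Mitochondrial ribosomal proteins had 13 AS-list genes, none with 2 chains, of which 2 were called, both by Whippet alone. Of 11 translation initiation factors 6 were called by at least 3 programs, including eIF-4E, the cap-binding protein, eIF-4a, the RNA helicase of the cap complex, and eIF5. The eIF-2beta gene, with 1 transcript, was called by none. The eIF3b gene (eIF3-S9) scored 1 in JUM and rMATS, 1.0 in Whippet and 0.999741 in Cufflinks in the authors' deposited tables, but 2.42083285248e-18 in MAJIQ. Aminoacyl-tRNA synthetases, which charge tRNAs, had 11 AS-list genes (31.4% of their names), 3 called by at least 3 programs: Aats-pro and Aats-val by 5, and Aats-asp by 3.

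RNA-processing genes on the AS list came from 5 of the gene lists. Each of the 3 AS-list genes among SR proteins and kinases was called by at least 3 programs: B52 and SC35, both SR proteins, by 5, and the kinase SRPK by 4. Of 7 hnRNPs and other RNA-binding splicing regulators, each with at least 2 chains, 5 were called by at least 3 programs. They are A2bp1 (the fly Rbfox protein), the mRNA-binding protein Imp, aret (the Bruno translational repressor), Rox8 and heph, the polypyrimidine-tract-binding protein with 24 annotated chains. The core spliceosome had 4 AS-list genes, 1 with 2 chains, which was the single one called: the U2 snRNP gene CG13900, by 4 programs. SmB, SmE and snRNP-U1-C, proteins of the snRNP cores and of U1, were listed by Cufflinks alone, at 0 in the authors' deposited table. Among 6 genes of the exon junction complex, mRNA decay and export, nxf2 was called by 5 programs, Smg5 of nonsense-mediated decay by 4 and the nuclear cap-binding gene Cbp80 by 3. Cbp80 has 1 intron chain and 2 transcripts, and JUM and rMATS did not list it. Of 7 RNAi and piRNA genes, AGO3 and Dcr-2 were called by 4 programs and r2d2 by 3, and drosha by none.

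Signalling genes were described with 5 lists. Insulin and TOR signalling had 6, of which 5 were called by at least 3 programs: the PI3-kinase subunit Pi3K92E, foxo, SNF4Agamma of the AMP-activated kinase, Akt1 and rictor. In rMATS, Akt1 scored 0.108394 in the authors' deposited table, while JUM, MAJIQ and Whippet gave it 1. The receptor kinase, Ras and MAPK list had 5, of which 4 were so called, among them the adaptor drk and the phosphatase csw by 5 programs each. The fifth, the scaffold ksr, was called by Cufflinks alone. Of 7 Toll and Imd immunity genes 5 were called by at least 3 programs, including Tl, PGRP-LA and Socs36E, while PGRP-LF and the kinase ird5, each with 1 transcript, were called by none. Of 12 genes of Wnt, Hedgehog, Notch and BMP signalling 7 reached 3 programs, such as the protease kuz, which cleaves Notch, the BMP type I receptor sax and the co-Smad Med. The uncalled members included dsh, smo, fu and Su(fu), all annotated with 1 transcript. The co-activator yki and its DNA-binding partner sd, of the Hippo pathway, were called by 5 and 4 programs.

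Genes of microtubules, adhesion and gene regulation also held both kinds of members. Microtubule genes numbered 19 (31.1% of their names), but 7 have at least 2 chains, 5 were called by at least 3 programs and 10 by none. CLIP-190, stai, tacc, nudE and the kinesin gene unc-104 were the 5. The extracellular matrix and adhesion list had the highest share of names on the AS list of any list, 34.2%, and 9 of its 13 AS-list genes reached 3 programs, including the matrix metalloprotease Mmp1 and the laminin chain wb. Of 15 transcription factors 12 have at least 2 chains and these 12 were called by at least 3 programs. EcR, the ecdysone receptor, Mef2, the muscle regulator, and cnc, the fly Nrf factor, were called by 5. Of 17 chromatin genes 8 were called by at least 3 programs, among them the BTB protein gene mod(mdg4) with 22 chains, while Pc, the Polycomb protein gene with 1 transcript, was called by none.

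Proteasome, vesicle traffic and metabolic genes made up the next lists. None of 7 AS-list proteasome genes has 2 chains, and 1 was called, Prosalpha6 by Whippet alone. Rpn5, Rpn7 and Prosbeta3 were uncalled. Vesicle traffic had the most AS-list genes of any protein-coding list, 26, of which 13 reached 3 programs. The clathrin heavy and light chains Chc and Clc, the early endosome GTPase Rab5 and the endocytic scaffolds Dap160 and Eps-15 were each called by 5 programs, and Rab18, Rab23 and Syx18 by none. Mitochondrial respiration had 20, of which 7 were called by at least 3 programs, or 4 when symbols were matched as written only, and 11 by none. The outer membrane channel gene porin and CG11455, a complex I subunit, were called by 5. Among cell cycle genes 4 of 15 reached 3 programs: Incenp and the meiotic Cdc25 phosphatase gene twe at 4, and cdc2c (Cdk2) and rap (Fizzy-related) at 3. Of 8 glycolytic and tricarboxylic acid cycle genes 3 reached it, with Pfk, phosphofructokinase, at 5 and Gapdh1 and Gapdh2 at none.

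Noncoding and transposon-related genes formed the largest list, with 2032 names, of which 121 were on the AS list (5.95%, beside 12.1% of all genes). Of the 121, 19 have at least 2 chains, 8 were called by at least 3 programs and 102 by none. CR43628, CR43857, CR43868 and CG14117 were called by 5, and CR43957 by 4. Ion channels and synaptic genes had 6 of 68 names on the AS list (8.82%, beside 12.1% of all genes). Of the 6, 5 were called by at least 3 programs, with Ank, CASK and Stim at 5. Dscam1, the cell-surface receptor gene with 75 annotated chains, was called by JUM, MAJIQ and Whippet, was not listed by rMATS or Cufflinks, and had a MISO Bayes factor of 0.0 in the authors' deposited table. SK, a calcium-activated potassium channel gene with 10 chains, was listed by Cufflinks alone, at 0.

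Chromosome 4, the small dot chromosome of the fly, stood apart by position. Of its 103 genes on either list, 26 (25.2%) were on the AS list, against 11.1% to 14.5% on the 5 large arms. Of the 26, 16 (61.5%, interval 40.6 to 79.8) were called by at least 3 programs, against 26.6% to 33.4% on the other arms. It also had the highest share of multi-chain genes on its part of the AS list, 76.9% against 37.5% to 44.3%. Among its 20 multi-chain genes 16 were called by at least 3 programs, beside 64.9% to 74.2% of such genes on the other arms. The part that the number of chains has in these shares was not tested. Zyx, the zyxin of focal adhesions, PIP4K and Ank are members on chromosome 4.

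Each program made more calls on the AS list at the 60% level than at the lower levels. Among the 822 AS-list genes with at least 2 chains, MAJIQ called 589 at 60%, 564 at 40% and 366 at 20%. These are 71.7%, 68.6% and 44.5% of the 822. At the lower levels 30.9% and 20.1% of all genes in its table were called. Table shares cover genes of both lists and of any structure, AS-list calls among them, so they are another measure. Cufflinks called 394, 339 and 169, beside 2.9% and 1.36% of its table. These were the programs whose counts were smallest at 20% relative to 60% after MISO, which called 12, 5 and 1, beside 1.52% and 0.635% of its table. JUM called 555, 547 and 507, or 67.5%, 66.5% and 61.7% of the 822, beside 41.6% and 38% of its table. The rMATS counts were 407, 389 and 347, beside 34% and 29.8%. Whippet called 633, 598 and 532, beside 24.7% and 21%. Relative to 60%, the counts at 20% were highest in JUM, rMATS and Whippet, and MAJIQ also had most of its 60% count. Each count is of its own level and does not follow the same genes. In genes with 1 chain or none Whippet called 228, 204 and 163 and Cufflinks 86, 54 and 15. Of all AS-list genes, 591 were called by at least 3 programs at 60%, 554 at 40% (27.7%) and 455 at 20% (22.8%), beside 3.37% and 2.75% of both lists at the lower levels. The levels share their control libraries, so these counts are not independent, and no test of the differences was possible. By kind of event, genes with an alternative 5' splice site alone had 69, 62 and 35 MAJIQ calls and 68, 65 and 59 JUM calls at the 3 levels. Genes with an alternative first exon alone had 59, 58 and 40 MAJIQ calls and 60, 57 and 53 JUM calls.

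**Figure D5:**
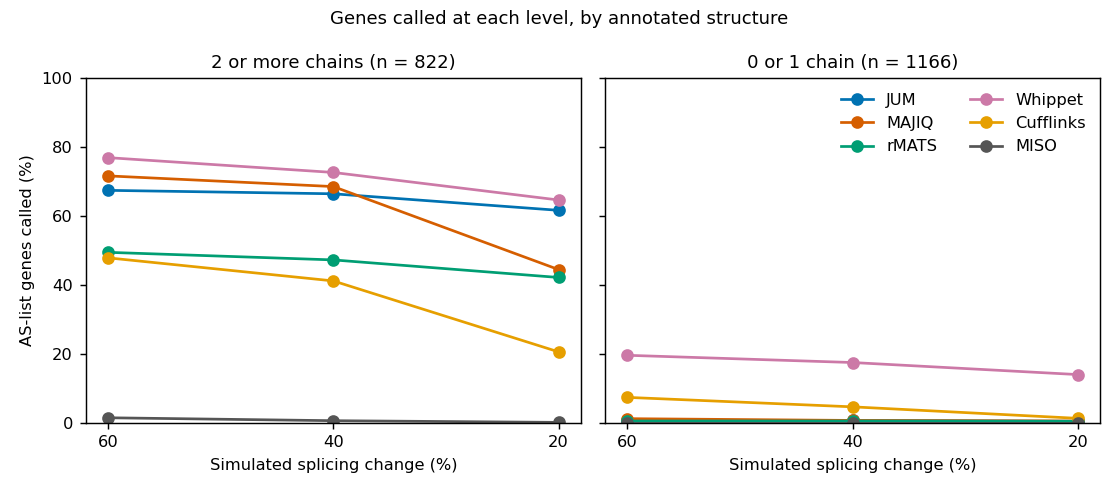
Percent of AS-list genes called (y axis) by each program at the 60%, 40% and 20% levels (x axis), for 822 genes with at least 2 intron chains (left) and 1166 with 1 chain or none (right). JUM and rMATS lines are nearly flat on the left, MAJIQ drops from 71.7% to 44.5% and Cufflinks from 47.9% to 20.6%, and Whippet is the highest line in both panels.

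Some genes were called widely at 60% and by no program at 20%. CG32432, on arm 3L with 2 chains that differ by a cassette exon, was called by 5 programs at 60%, by 5 at 40% and by none at 20%. Its JUM scores in the authors' deposited tables were 1, 0.999987 and 0.734401 at 60%, 40% and 20%, and its MAJIQ scores were 1.0, 0.999998433891 and 0.191529298453. Asph, the aspartyl beta-hydroxylase gene, went from 5 programs to 4 and to none, and CG6340 from 5 to 2 and to none. The noncoding gene CR43857 was called by 5 programs at 60%, by 2 at 40% and by none at 20%, and JUM listed it at the 60% level but not at the others. Since the rule for these genes was to have the fewest calls at 20%, their fall is how they were chosen. By contrast RpL10, RpL10Ab, B52, SC35, Rab5, Chc, foxo and Mef2 were called by 5 programs at 60%, and all but foxo were called by 5 at 20% as well; foxo was called by 4.

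Among the 822 multi-chain genes, 133 were called by no program at 60%. JUM, MAJIQ and rMATS listed none of 95 of these (71.4%), against 21 of the 689 called genes (3.05%), and 120 of the 133 had a Cufflinks score of 0 or no entry, against 212 of the 689. None of the 7 event kinds is annotated in 55 of the 133 (41.4%), against 43 of the 689 (6.24%). Whippet listed 97 of the 133, so many were scored by at least 1 program without reaching its threshold. CG9705 was listed by all 6 programs, with 0.0105906 in JUM, 0.548 in Whippet, 0.16875 in Cufflinks and a Bayes factor of 0.47 in the authors' deposited tables. The purine synthesis gene ade2, with an annotated alternative 5' splice site, scored 0.0739236 in JUM, 0.00439419467202 in MAJIQ, 0 in rMATS and 0.798 in Whippet. A few genes rested on 1 program while others had scored them: MAJIQ gave CG10512 1.0 and JUM gave it 0.235395 in the authors' deposited tables. Dad, an inhibitory Smad, had a high Whippet score but 0.0185963 in JUM and 0.287945 in rMATS. Cdk4 had 0.999741 in Cufflinks, 0.930587 in JUM and 0.901 in Whippet, both under the threshold. JUM alone called 6 AS-list genes, MAJIQ 12, rMATS 12 and Cufflinks 14.

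Calls on the non-AS list were also concentrated in genes with several chains. Of the 256 called genes 77.0% have at least 2 chains, beside 29.4% of all non-AS-list genes, and 69.9% overlap the span of another gene, beside 49.3%. Most were called by 1 program: 70 by Whippet alone, 62 by JUM alone, 35 by MAJIQ alone, 24 by Cufflinks alone and 23 by rMATS alone. The 6 called by 3 programs, named after their values were seen, were CAP, CG5946, Rph, Sxl, cdc14 and sea. Sxl, the master switch of sex determination and itself an RNA-binding splicing regulator, had 0.992848 in JUM, 0.959123 in rMATS and 0.978 in Whippet in the authors' deposited tables. The mitochondrial citrate carrier gene sea had 1 in JUM, 1.0 in MAJIQ and 0.999741 in Cufflinks.

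The knockdown could not be read from the scores. Psi lies on the non-AS list and was listed by Cufflinks alone, at 0 at every level in the authors' deposited tables. The tables hold no expression levels, so the hemocyte character of S2 cells could not be checked. The markers are given for their calls alone. Of 15 hemocyte markers 7 were on the AS list and 5 of these were called by at least 3 programs. The same share was 29.6% of all AS-list genes and 70.3% of those with at least 2 intron chains. Whether the markers differ from other genes with several chains was not tested. The 5 called markers are the GATA factor srp by 5 programs, its cofactor ush, the peroxidasin Pxn and the collagen IV chain Cg25C by 4, and BM-40-SPARC by 3. He, with 1 chain, and NimC1, with 2, also on the AS list, were called by none. The other 8 hemocyte markers were on the non-AS list and uncalled at 60%. Of 7 markers of other tissues 1, the germline helicase vas, was on the AS list; it was called by rMATS and Whippet. The neuronal marker elav and the muscle gene Mhc were on the non-AS list and were not called.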

How the data were processed

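Per the labels, all reads were simulated by computer. According to the submitters' processing notes, STAR 2.5.4b and Cufflinks were used with the build dm3; the role of each is not stated. Not given in the sources used here are the simulator, the depth and the programs' settings. The authors deposited 18 tables, each with 1 score per gene and a class label, and the gene lists. Each deposited score was used as it stands. Values of JUM, rMATS and Cufflinks have a maximum of 1 and look like 1 minus a p or q, those of MAJIQ and Whippet look like probabilities, and those of MISO like Bayes factors. These readings rest on the values and on what the programs usually write. The 8 negative rMATS values at 60% were kept below the threshold. Labels matched the lists for all 69238 entries and no gene was repeated within a table, and alternatives on labels or repeats would therefore give the same values.

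Calls used 0.95 or a Bayes factor of 10. Alternatives were 0.9 (5), 0.99 (20), a threshold that lets through at most 5% of the non-AS list, other numbers of programs, each program left out, protein-coding or non-overlapping genes, and symbols as written. Of 16595 names, 16410 (98.9%) were found in the BDGP6.54 annotation of Ensembl (release 115), 12402 by current symbol and 4008 by a unique older one. Event kinds came from comparing annotated transcripts of a gene: 5' or 3' splice sites that share the other end, a skipped internal exon, an intron within another transcript's exon, mutually exclusive exons, and first or last exons that differ in the splice site they use. A gene can have several chains and no kind, or a retained intron with 1 chain. Protein and promoter sequences were not used here.

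The rule for named genes took those with calls from the most programs, up to 5 members of each gene list with the most calls and up to 4 with none, up to 5 called by a single program, 8 called widely at 60% and least at 20%, 6 listed widely but not called, and Psi. Results that need an item withheld from the text, with 1 gene list, are not reported here. Other genes were named after their values were seen. The members and gene lists were chosen with earlier results of these data known. Counting was checked on made-up scores and toy gene models with known answers. That checks the counting and not the calls in these libraries. Scripts ran under Python 3.11.15 with numpy 2.4.6 and scipy 1.17.1, and plots were drawn with matplotlib 3.10.9.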

Additional observations from a re-analysis of the deposited data

How the results depend on the processing

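No paired analysis was possible because each table pools the 3 libraries of a group and its columns carry no replicate, so leaving out replicates and a replicate block were not run. Of 63 alternatives to the main results, not counting those on labels and repeats, 54 stayed within 1.5 times the count or within the interval of the share. With at least 1 program in place of 3, called shares were 10.7% for intronless genes, 22.7% for genes with 1 chain and 83.8% for those with at least 2. Non-AS-list genes called at the main threshold were 90 for JUM, 35 for rMATS and 89 for Whippet. At 0.99 they were 46 for JUM, 23 for rMATS and 31 for Whippet, and at 0.9 they were 53 for rMATS and 180 for Whippet. At a 5% non-AS rate MISO counted all of the 127 AS-list genes it listed, since its lowest counted score was then 0. Of 106 alternatives for event kinds and gene lists 15 moved, mostly under 1 program; alternative first exons alone stood at 77.1% in genes that overlap no other. The cause was not tested. Depth is unknown, so an uncalled gene may be unexpressed, unlisted or unchanged in these tables.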
